A study of Jaculus jaculus and Mus musculus with 24 samples.

Results

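The muscle of the newborn jerboa hindfoot was compared with forelimb muscle of the same species and age, in 3 libraries of each. The comparison covered 12996 of the 17641 features in the deposited tables, namely those with at least 10 reads in 3 of these 6 libraries. The other 4645 features were below that limit, and 2078 of them had no read at all in the 6 libraries. At the edge of the rule, 73 features had exactly 10 reads in the third highest of the 6 libraries and 95 had exactly 9. The 6 libraries belong to a series of 24, in which hindfoot muscle and the flexor digitorum superficialis (FDS), a finger flexor of the forelimb, were taken from Jaculus jaculus, the lesser Egyptian jerboa, and from the mouse. Each tissue was sampled at birth (P0) and 3 days later (P3), with 3 libraries for each combination. The labels give every sample the treatment "normal" and name no strain, genotype or sex. Foot and forelimb libraries of newborn mice, and those of jerboas at P3, served only for tests of a difference. Foot muscle was taken from sections of the foot and FDS muscle by dissection, so the limb and the way of sampling cannot be told apart. The labels do not state which libraries share an animal or a pool, so the p-values measure how far the libraries spread, which may be technical.

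The jerboa is a bipedal desert rodent with long hind feet. Muscles form inside its feet before birth and are lost soon after it, while the forelimb keeps its muscles. The mouse keeps the muscles of both limbs. In a muscle fibre, myosin thick filaments pull on actin thin filaments between Z-discs, calcium released from the sarcoplasmic reticulum starts the pull, and mitochondria and glycolysis supply the energy.

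Depth was 16.7 to 18.9 M counted reads in the foot libraries and 29.2 to 36.8 M in the forelimb libraries. Levels are given in CPM, the reads of a gene per 1 M counted reads, scaled by the TMM library size. The scale ignores gene length, so it serves to compare libraries and not genes. A change is the log2 ratio of foot to forelimb with its SE, from edgeR's quasi-likelihood test, and a feature was called where its Benjamini-Hochberg adjusted p was under 0.05. The first principal component of the 6 libraries held 82.4% of their variance and put the 3 foot libraries on one side and the 3 forelimb libraries on the other. The limb labels were checked with the T-box and Pitx genes that mark hindlimb and forelimb. Tbx4, the hindlimb T-box gene, stood at 116, 119.6 and 98.97 CPM in the foot libraries and at 3.12, 4.56 and 4.18 CPM in the forelimb libraries. Pitx1, which directs hindlimb identity, stood at 10.6, 10.6 and 10.8 CPM in foot and at 0.168, 0.272 and 0.0810 CPM in forelimb. Tbx5, the forelimb counterpart, had 1.35, 0.0536 and 0.302 CPM in foot and 7.85, 8.10 and 8.99 CPM in forelimb. All 3 genes went with the labels, and the first foot library held the most Tbx5 of the 3. Without it the change of Tbx5 was -5.57, against -3.84 ± 0.47 with all libraries. Of 14 markers of muscle fibres 12 were lower in foot, 0 higher (1 with the length trend removed, a correction described below) and 2 not called, and their sum was 47916 to 52576 CPM in foot and 80741 to 90645 CPM in forelimb.

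Of the 12996 features 8697 were called, which is 66.9%. With TMM scaling the calls were even in direction, with 4371 higher (33.6%) and 4326 lower (33.3%) in foot. This balance depended on the scaling. There were 3942 higher and 4750 lower with upper quartile scaling, and 4433 and 4873 in a fit of all 24 libraries. Foot and forelimb libraries did not overlap for 4638 features with higher (35.7%) and 4655 with lower (35.8%) levels in foot. A change of at least 2-fold was called for 1187 features that were higher (9.13%) and 1600 that were lower (12.3%). The median log2 change over all features was 0.01, and the middle 50% of features lay between -0.53 and 0.49. The plot of change against level shows this spread with the named genes marked. The count of calls in each gene list, and each remark that groups did not overlap, is to be read against these shares of all features. Most genes named from a list were picked by small p, so their separation largely follows from that choice.

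**Figure D1:**
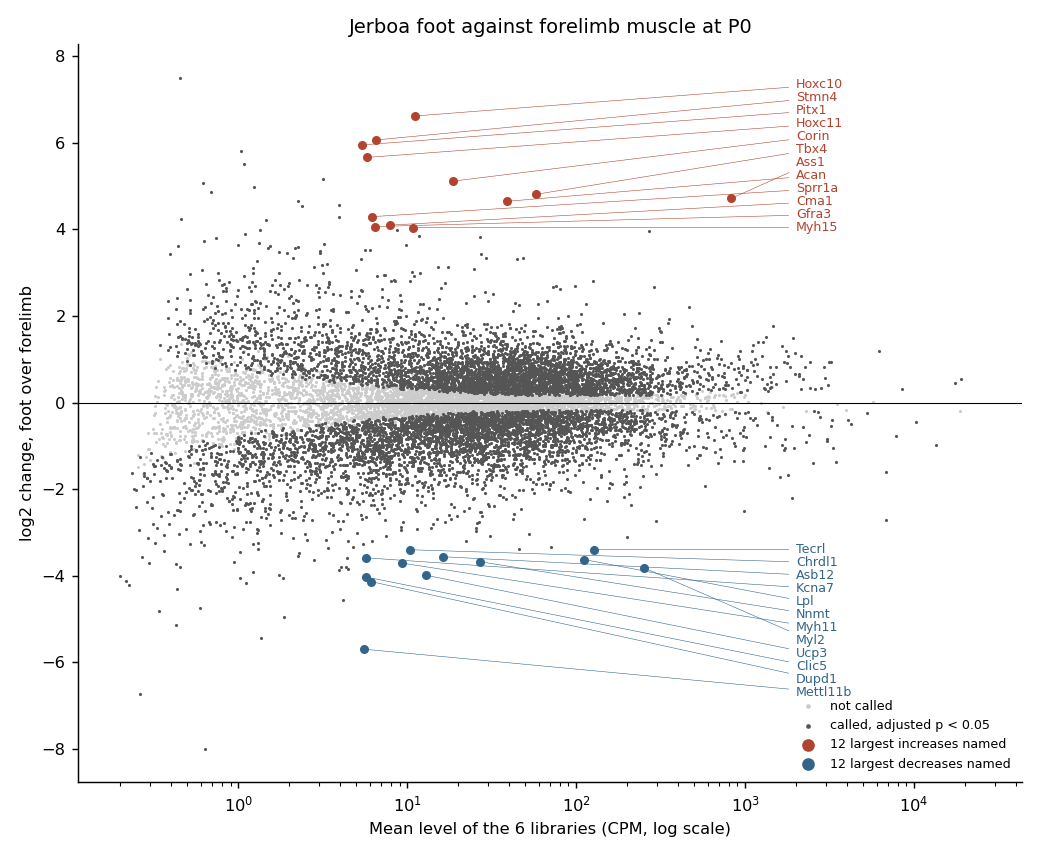
The log2 change of jerboa foot over forelimb at P0 (vertical axis) against the mean level in CPM (horizontal axis, log scale) for the 12996 features. Dark points were called at an adjusted p under 0.05 and pale points were not, with the 12 largest increases and 12 largest decreases named, from Hoxc10 (6.62) to Mettl11b (-5.70).

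The direction of change followed the length of the transcript. Features were put in 4 classes of equal size by mouse transcript length. In the class of the shortest (105 to 1970 bases) the median change was 0.29, with 47.1% called higher and 18.6% lower in foot. In the class of the longest (from 4601 bases) the median was -0.39, with 17.5% higher and 54.6% lower. The same order was present in newborn mice (medians of 0.15 in the shortest and -0.21 in the longest) and in jerboas at P3 (0.33 and -0.46). Its part in the results was not tested as a cause. Each list count of foot against forelimb at P0 was also taken with the trend removed, a correction added after seeing the data. The list counts of the differences from mouse and from P3 were not. With the correction 8315 features were called, and 7037 of the 8697 calls were made again in the same direction. Where the correction moved a list by over 1.5 times, the corrected count stands beside it.

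The single genes named first are the 12 largest changes in each direction among called features whose libraries did not overlap and whose mean reached 10 CPM in foot or forelimb. The largest increase belonged to Hoxc10, a homeobox gene of the hindlimb. It stood at 19.1, 29.3 and 17.9 CPM in the foot libraries against 0.101, 0.510 and 0.0810 CPM in forelimb, a change of 6.62 ± 0.40 (edgeR adjusted p = 2.92e-07). It had 21 reads in the forelimb libraries, and the change was 7.85 without the second of them. Its neighbour Hoxc11 (5.67 ± 0.32), Pitx1 (5.95 ± 0.28) and Tbx4 (4.81 ± 0.13) were also among the 12 largest increases. Among 18 measured genes of limb identity 12 were higher, 4 lower and 2 not called, with a median of 1.99. Hoxd13, which patterns the digits, was at 19.5, 21.7 and 17.9 CPM in foot and 4.02, 3.95 and 4.29 CPM in forelimb (2.27 ± 0.13). The groups did not overlap for Hoxc10, Hoxc11, Pitx1, Tbx4 or Hoxd13. For Hoxd13, picked by small p, this largely follows from that choice, and for the others it was a condition of being named.

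The other large increases were not limb genes. Stmn4, a microtubule regulator best known from neurons, stood at 9.06, 19.1 and 10.5 CPM in foot and at 0.168, 0.238 and 0.162 CPM in forelimb, a change of 6.07 ± 0.38 (adjusted p = 4.15e-07). Corin, which cleaves pro-natriuretic peptide at the surface of heart cells, stood at 43.05, 37.04 and 29.3 CPM in foot and at 1.07, 1.39 and 0.729 CPM in forelimb (5.12 ± 0.22, adjusted p = 5.06e-08). Both genes were chosen among features whose libraries did not overlap, so their complete separation follows from that choice. The features carry mouse transcript identifiers, which place Stmn4 on mouse chromosome 14 (66344304 to 66361680) and Corin on chromosome 5 (72300026 to 72504208) of GRCm38. Gfra3, a receptor of the GDNF family, had 13.4, 11.8 and 11.4 CPM in foot and 0.637, 0.612 and 0.891 CPM in forelimb (4.07 ± 0.20). Myh15, a myosin known from eye muscles, had 15.1, 18.9 and 26.9 CPM in foot and 1.21, 1.19 and 1.27 CPM in forelimb (4.04 ± 0.23). Sprr1a, a small protein induced by injury in several tissues, had 4.53, 4.72 and 26.1 CPM in foot and 0.805, 0.748 and 0.270 CPM in forelimb (4.30 ± 0.73), and the third foot library was far above the others.

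The largest decrease was that of Mettl11b, an N-terminal methyltransferase gene, with 0.270, 0.214 and 0.121 CPM in the foot libraries and 10.5, 13.6 and 8.67 CPM in forelimb (-5.70 ± 0.32, adjusted p = 1.89e-07). Dupd1, a phosphatase gene of muscle, had 0.809, 0.590 and 0.543 CPM in foot and 12.002, 12.04 and 10.6 CPM in forelimb (-4.14 ± 0.20). Clic5, of the chloride intracellular channel family, had 0.485, 0.536 and 0.966 CPM in foot and 7.74, 12.99 and 11.6 CPM in forelimb (-4.03 ± 0.30). These genes were low in every foot library. Other genes in the 12 were Nnmt, which methylates nicotinamide (-3.68 ± 0.18), the potassium channel gene Kcna7 (-3.59 ± 0.21), Asb12, of a family of ubiquitin ligase adaptors (-3.56 ± 0.17), and the BMP antagonist gene Chrdl1 (-3.40 ± 0.25). Tecrl, best known from heart muscle, had 42.2, 12.2 and 11.4 CPM in foot and 307, 222 and 170.1 CPM in forelimb (-3.40 ± 0.42). The first foot library had the most Tecrl of the foot group, as it had of Tbx5 and of the slow myosin light chain gene Myl2, with 58.4, 19.2 and 21.7 CPM in foot and 452, 471 and 484 CPM in forelimb (-3.82 ± 0.34). Without that library the change was -4.30 for Tecrl and -4.52 for Myl2.

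**Figure D2:**
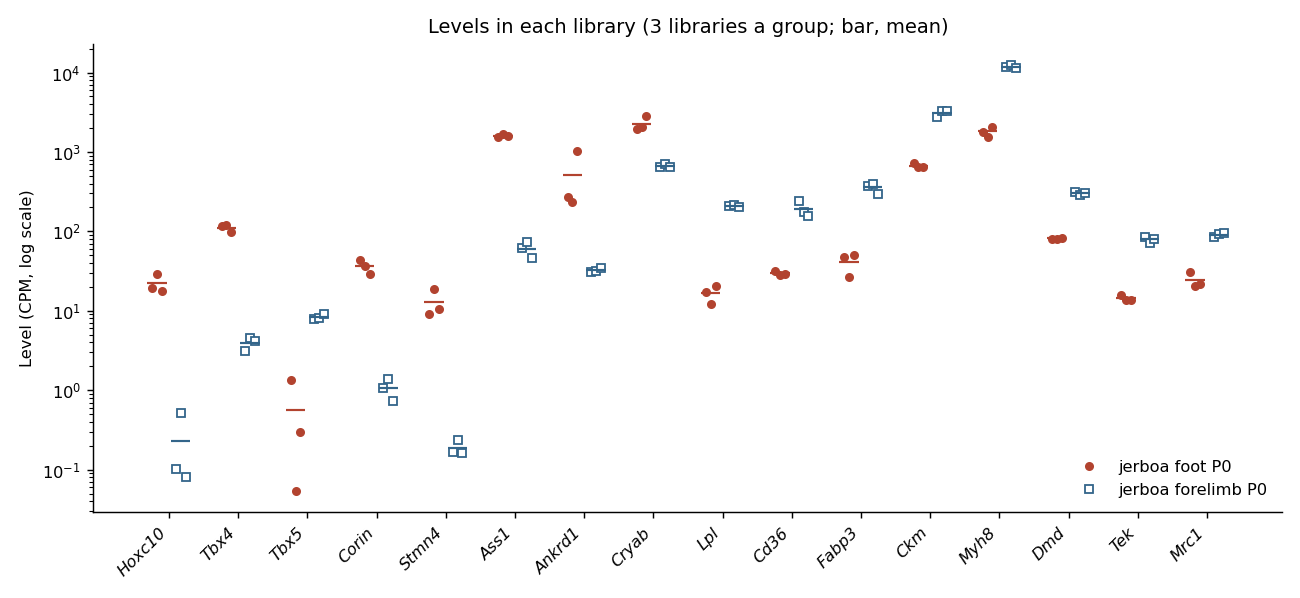
Levels in CPM (log scale) of 16 genes in each jerboa P0 library, with foot libraries on the left of each pair and forelimb libraries on the right; a bar marks the group mean. The groups do not overlap for any of these 16 picked genes, nor for 35.7% (higher) and 35.8% (lower) of all features. The third foot library stands above the others for Ankrd1 (1027 CPM, with 271 and 234 CPM in the others).

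Genes of the contractile apparatus were mostly lower in foot, but not uniformly. Of 23 measured genes of the thick filament 16 were lower, 2 higher and 5 not called, with a median of -0.78. Perinatal myosin Myh8 stood at 1779.7, 1565 and 2091 CPM in foot and 11883, 12349 and 11421 CPM in forelimb, a change of -2.71 ± 0.11 (adjusted p = 4.20e-08). Embryonic myosin Myh3, the earlier isoform, stood at 16322, 16860.2 and 19366 CPM in foot and 16607, 20853 and 22499 CPM in forelimb, groups that overlapped, and was not called (-0.19 ± 0.12, adjusted p = 0.167). Without the first forelimb library Myh3 was called lower (-0.32), and with the length trend removed its value was 0.20. The myosin kinase gene Mylk2 (-1.999 ± 0.11), the M-band gene Myom3 (-1.15 ± 0.08) and slow myosin binding protein C, Mybpc1 (-1.06 ± 0.09), were lower. Myh7b, an evolutionarily old myosin, went the other way, with 253, 239 and 198 CPM in foot and 88.3, 83.5 and 84.9 CPM in forelimb (1.43 ± 0.09). Myosin genes lie close in sequence, and reads could be split between them in counting, so the values of single isoforms are uncertain.

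Thin filament genes moved both ways. Of 22 measured members 11 were lower, 9 higher and 2 not called, with a median of -0.31. The fast troponin genes Tnnc2 (-0.89 ± 0.07) and Tnni2 (-0.76 ± 0.07) were lower in foot, and the slow or cardiac troponin genes Tnnt1 (1.40 ± 0.08) and Tnnc1 (0.86 ± 0.07) were higher. Tnnt1 stood at 1777, 1951 and 1831 CPM in foot against 664, 702 and 745 CPM in forelimb. Skeletal actin, Acta1, stood at 8156, 9554 and 9327 CPM in foot against 16464, 17636 and 19613 CPM in forelimb (-0.99 ± 0.09), and the filament-capping gene Tmod4 was lower as well (-1.46 ± 0.07). In neither troponin pair did the groups overlap, but all of these troponin genes were picked by small p.

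At the Z-disc and along titin 12 of 26 measured genes were lower, 7 higher and 7 not called, with a median of -0.21. Titin itself, Ttn, stood at 3265, 3263 and 3533 CPM in foot and 9977, 10335 and 10558 CPM in forelimb (-1.62 ± 0.08, adjusted p = 8.20e-08). Its partners Mypn (-1.56 ± 0.10), Ldb3 (-0.99 ± 0.08) and Myoz1 (-1.22 ± 0.08), which anchor filaments at the Z-disc, were lower too. With the length trend removed the change of Ttn was -0.96. Cryab, a small heat shock protein that protects desmin and titin, was higher, with 1925, 2050.1 and 2853 CPM in foot and 651, 703 and 639 CPM in forelimb (1.78 ± 0.13, adjusted p = 1.13e-06). A second small heat shock gene, Hspb2, was at 324, 357 and 340.5 CPM in foot and 96.3, 98.4 and 117 CPM in forelimb (1.71 ± 0.09). Their relative Hspb6 moved the other way (-1.10 ± 0.09), so the family moved both ways. Among 27 heat shock and proteostasis genes 8 were higher, 11 lower and 8 not called.

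Ankrd1, a titin-binding protein that also acts in the nucleus and rises in stressed or denervated muscle, had uneven foot libraries. It stood at 271, 234 and 1027 CPM in foot and 31.04, 31.9 and 34.8 CPM in forelimb (3.97 ± 0.50, adjusted p = 3.87e-05). The third foot library was far above the other foot libraries, and the chemokine gene Ccl2 showed the same library apart, with 5.02, 5.57 and 26.1 CPM in foot and 4.43, 5.78 and 5.18 CPM in forelimb. Ccl2 was not called (1.24 ± 0.51, adjusted p = 0.0521), but was called higher with RLE scaling, with no filter, in the fit of all 24 libraries, and without the first or the second foot library. Without the third foot library the change of Ccl2 was 0.05 and not called. That of Ankrd1 was then 2.95 and that of Sprr1a 2.96, both still called.

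Of 35 genes that couple excitation to contraction 20 were lower in foot, 8 higher and 7 not called, with a median of -0.63. The calcium pump gene Atp2a1 stood at 804, 743 and 699 CPM in foot and 2218, 2719 and 2516 CPM in forelimb (-1.73 ± 0.09). The muscle sodium channel gene Scn4a, which carries the action potential, stood at 23.4, 25.1 and 24.3 CPM in foot and 76.5, 84.3 and 87.7 CPM in forelimb (-1.77 ± 0.08). Ryr3, a calcium release channel of young muscle, was lower (-2.07 ± 0.11), as were the triad gene Sypl2 (-2.05 ± 0.09) and the calcium-binding gene Srl (-1.43 ± 0.07). All foot libraries were below all forelimb libraries for these 5 genes, which were picked by smallest p. The count of higher members was 5 rather than 8 without the second foot library, and likewise without the first or the second forelimb library.

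The dystrophin complex and the costamere tie the contractile core to the membrane. Of 25 measured genes 19 were lower, 3 higher and 3 not called (median -0.53). Dystrophin, Dmd, stood at 80.3, 81.04 and 83.7 CPM in foot and 313, 290.0 and 308 CPM in forelimb (-1.89 ± 0.07, adjusted p = 4.20e-08). Its paralogue Utrn (-0.92 ± 0.08), the partner genes Dtna (-0.91 ± 0.07) and Sntb2 (-1.89 ± 0.17), and the integrin adaptor gene Tln2 (-1.37 ± 0.09) were also lower. With the length trend removed, 14 of the 25 were lower and 4 higher, and the changes were -1.24 for Dmd and -0.28 for Utrn. With upper quartile scaling, without the second foot library or without the first forelimb library 1 member was called higher in place of 3.

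Genes of energy supply were lower in foot in most cases. Of 38 measured genes of fatty acid oxidation and lipid storage 31 were lower, 1 higher and 6 not called, with a median of -1.02. Lpl, the lipase that frees fatty acids at the vessel wall, stood at 17.3, 12.2 and 20.7 CPM in foot and 207, 213 and 200.3 CPM in forelimb (-3.63 ± 0.15, adjusted p = 4.20e-08). Cd36, which takes fatty acids into the cell, stood at 31.5, 28.6 and 28.9 CPM in foot and 241, 177 and 156 CPM in forelimb (-2.69 ± 0.15). Fabp3, which carries them through the cytoplasm, stood at 47.1, 26.96 and 51.03 CPM in foot and 376, 399.8 and 298 CPM in forelimb (-3.10 ± 0.21). Each of these 3 genes was lower in every foot library than in any forelimb library. For Lpl this was a condition of its choice among the 12 largest decreases, and Cd36 was picked by small p. Acsl1, which activates fatty acids (-2.18 ± 0.09), Cpt1b, which admits them to mitochondria (-1.70 ± 0.07), and Etfdh, which passes their electrons on (-1.51 ± 0.07), were lower as well. Ucp3, a mitochondrial carrier of muscle linked to fatty acid use, had 2.21, 0.804 and 1.57 CPM in foot and 22.999, 26.7 and 23.4 CPM in forelimb (-3.99 ± 0.23).

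The citrate cycle and the respiratory chain were lower by less, in medians without the length correction. Of 32 measured genes listed under pyruvate entry and the citrate cycle 26 were lower, 1 higher and 5 not called (median -0.55). Among the lower were Sdhd (-1.34 ± 0.07), Pdha1 (-1.01 ± 0.07), Cs (-0.995 ± 0.08) and Ogdh (-0.81 ± 0.07). So was Mdh1, the cytosolic form of its enzyme (-1.34 ± 0.08). Of 52 nuclear genes of the respiratory chain 38 were lower, 4 higher and 10 not called (median -0.52). The complex I gene Ndufs1 stood at 168, 163 and 177 CPM in foot and 462, 489.9 and 436 CPM in forelimb (-1.45 ± 0.07). Cox8b, a subunit of complex IV made in muscle and heart, was lower (-1.88 ± 0.13), while Cox6a1, the widely expressed form of a subunit whose muscle form is another gene, was higher at 224, 226 and 195 CPM in foot against 92.97, 81.4 and 83.5 CPM in forelimb (1.32 ± 0.08). Mitochondrially encoded genes were not analysed here. The respiratory chain list moved against the length trend, as its transcripts are short (median 823.5 bases). Those of the fatty acid list are longer (median 2374.5 bases), so the medians of change of these 2 lists are not on a like footing. With the trend removed 2 fatty acid genes, 0 citrate cycle genes and 1 respiratory chain gene were higher.

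Glycolysis and creatine phosphate had 37 measured genes, 22 of them lower in foot and 9 higher, with 6 not called (median -0.71). Muscle creatine kinase, Ckm, stood at 716, 644 and 652 CPM in foot and 2746, 3296 and 3287 CPM in forelimb (-2.21 ± 0.09, adjusted p = 5.06e-08). Phkg1, the muscle subunit that triggers glycogen breakdown, stood at 6.74, 4.02 and 6.64 CPM in foot and 47.2, 49.3 and 39.3 CPM in forelimb (-2.97 ± 0.17). Gpd1 (-2.76 ± 0.15), muscle enolase Eno3 (-1.92 ± 0.10) and adenylate kinase Ak1 (-1.25 ± 0.07) were lower. None of the 5 genes, which were picked by smallest p, had overlapping groups.

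**Figure D3:**
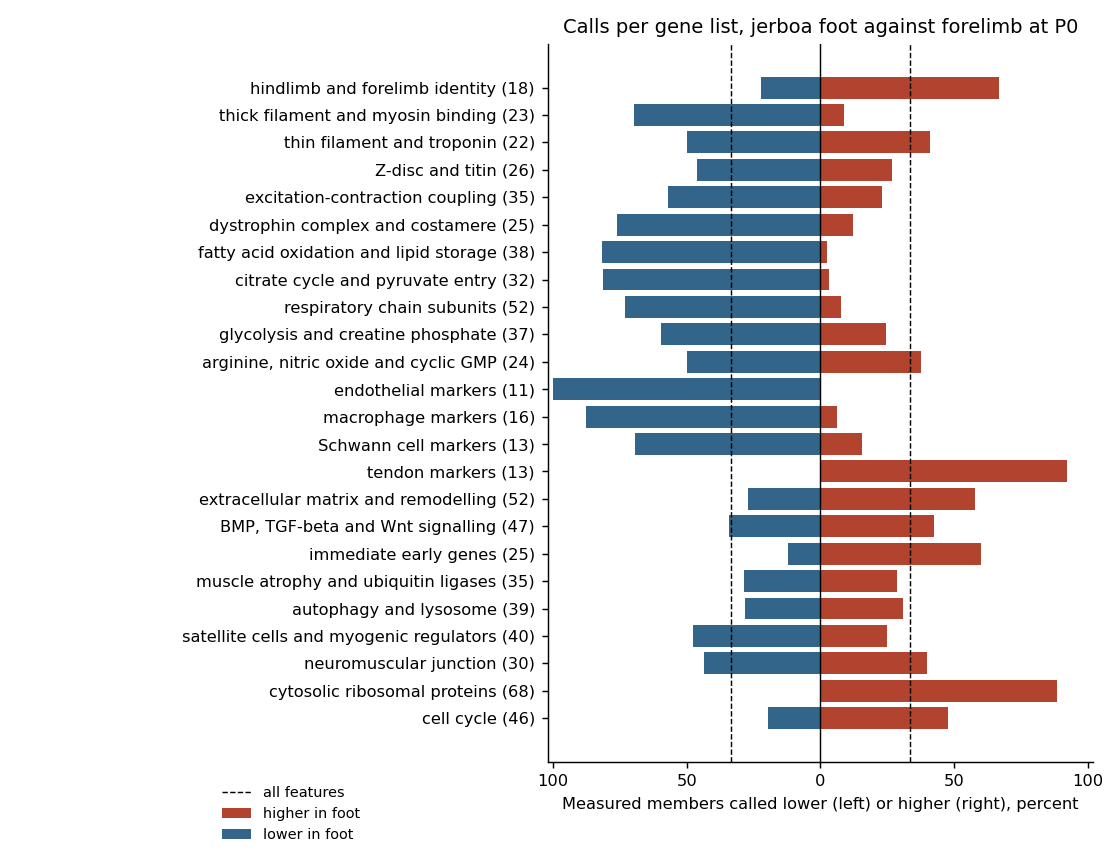
Share of the measured members of 24 gene lists called higher (right) and lower (left) in jerboa foot against forelimb at P0, in percent, with the number measured after each name. Dashed lines mark the shares over all features, 33.6% higher and 33.3% lower. Fatty acid, citrate cycle, respiratory chain, endothelial and macrophage lists lie mostly to the left, and ribosomal, tendon, limb identity and immediate early lists mostly to the right.

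Arginine and nitric oxide genes moved in both directions, with 9 of 24 measured members higher, 12 lower and 3 not called (median -0.58). Ass1, which makes the precursor of arginine from citrulline, stood at 1532, 1676 and 1576 CPM in foot and 62.4, 73.4 and 46.1 CPM in forelimb (4.72 ± 0.16, adjusted p = 3.58e-08). Nos1, the nitric oxide synthase of the muscle membrane, had no read in any foot library and 0.771, 1.67 and 1.38 CPM in the forelimb libraries, 123 reads in all. Set against 3 reads over the 3 foot libraries, about the 95% upper limit for a count of 0, it was 22.9-fold lower in foot. Downstream of nitric oxide, the guanylate cyclase genes Gucy1b1 (-1.48 ± 0.12) and Gucy1a2 (-3.13 ± 0.25), the cyclic GMP kinase gene Prkg1 (-1.76 ± 0.11) and the phosphodiesterase gene Pde5a (-1.59 ± 0.12) were lower. Prkg1 stood at 12.03, 9.22 and 12.02 CPM in foot and 38.6, 36.9 and 37.01 CPM in forelimb. The groups did not overlap for any of these downstream genes, which were picked by small p. The 4 downstream genes are also expressed in vessel walls, whose markers moved with them as described next, and the part of vessels in their change was not tested.

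Vessel and macrophage markers were lower in foot. All 11 measured endothelial markers were lower, with a median of -1.81, and their summed level was 227.3 to 271.6 CPM in the foot libraries and 744.0 to 803.9 CPM in forelimb. The angiopoietin receptor gene Tek stood at 15.8, 13.6 and 13.6 CPM in foot and 85.9, 72.2 and 80.05 CPM in forelimb (-2.47 ± 0.10, adjusted p = 4.20e-08). The adhesion gene Cdh5 stood at 34.8, 26.3 and 35.9 CPM in foot and 133, 128 and 129 CPM in forelimb (-2.01 ± 0.11). Pecam1 (-1.84 ± 0.12), the VEGF receptor gene Kdr (-1.68 ± 0.08) and Tie1 (-1.56 ± 0.09) were lower too. In bulk tissue fewer cells of a type and less RNA per cell cannot be told apart. All 11 were also lower with the length trend removed.

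Of 16 measured macrophage markers 14 were lower, 1 higher and 1 not called (median -1.10). Their sum was 173.5 to 251.6 CPM in foot and 455.3 to 469.5 CPM in forelimb. The mannose receptor gene Mrc1 stood at 30.5, 20.7 and 22.04 CPM in foot and 84.6, 91.9 and 95.7 CPM in forelimb (-1.89 ± 0.13). The growth factor receptor gene Csf1r (-1.70 ± 0.12), Lyve1 (-2.003 ± 0.15) and the complement gene C1qa (-1.26 ± 0.15) were lower. Cd68, a lysosomal protein, was the 1 marker that was higher, at 20.9, 22.5 and 21.01 CPM in foot and 9.49, 9.05 and 8.48 CPM in forelimb (1.25 ± 0.10). Of 5 measured granulocyte and mast cell markers 2 were higher, 2 lower (1 without the third forelimb library) and 1 not called. The 2 higher were the mast cell protease genes, Cma1 at 20.2, 9.38 and 14.98 CPM in foot and 0.771, 0.884 and 0.918 CPM in forelimb (4.10 ± 0.29) and Cpa3 at 25.5, 10.8 and 18.4 CPM in foot and 1.21, 1.70 and 1.48 CPM in forelimb (3.63 ± 0.30). The granulocyte genes S100a8 (-2.41 ± 0.34) and Csf3r (-0.95 ± 0.30) were lower. No lymphocyte marker was measured, with a summed level of at most 0.17 CPM in any of the 6 libraries.

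Other cell types were described by their lists. Of 12 smooth muscle and pericyte markers 7 were lower and 2 higher, with a sum of 3394 to 3766 CPM in foot and 3954 to 4355 CPM in forelimb, Myh11 at 2.21, 0.590 and 1.15 CPM in foot and 17.03, 15.6 and 19.4 CPM in forelimb (-3.71 ± 0.29) and the pericyte gene Rgs5 at -1.65 ± 0.16. With reads of either strand counted, the change of Myh11 was -2.35. With the length trend removed 4 of the 12 were higher. Of 13 Schwann cell markers 9 were lower and 2 higher, with a sum of 238 to 273 CPM in foot and 314 to 339 CPM in forelimb and with the neuregulin receptor gene Erbb3 at 74.6, 78.4 and 73.1 CPM in foot and 105, 103 and 109 CPM in forelimb (-0.49 ± 0.07). Egr2, a myelin regulator that is also induced by activity in other cells, was higher (1.69 ± 0.27). With the length trend removed Erbb3 was not called (-0.09). Of 10 neuron markers 5 were higher (8 with no filter on low counts), with the growth cone gene Gap43 at 4.59, 6.49 and 4.53 CPM in foot and 0.671, 0.850 and 0.945 CPM in forelimb (2.65 ± 0.25), and 1 lower, the tubulin gene Tubb3 (-2.60 ± 0.32).

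Of 10 measured keratinocyte markers 5 were higher and 1 lower (2 without the third foot library), and the sum of the list was 143 to 177 CPM in foot and 95.95 to 100.5 CPM in forelimb. Dsp, desmoplakin of the desmosome, stood at 63.1, 84.3 and 97.5 CPM in foot and 9.86, 6.87 and 7.80 CPM in forelimb (3.32 ± 0.17, adjusted p = 1.38e-07). Trp63, a p53 relative of basal skin, stood at 12.03, 15.1 and 17.5 CPM in foot and 2.05, 2.01 and 2.29 CPM in forelimb (2.80 ± 0.17). The keratin gene Krt14, which defines basal keratinocytes, had only 12 foot reads and 17 forelimb reads, and Ivl had 0 in both. The partner of Dsp at the desmosome, Jup, was lower (-0.70 ± 0.11).

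Tendon, cartilage and matrix genes were mostly higher in foot. Of the 13 tendon markers 12 were higher in foot, 1 was not called and 0 were lower (median 0.93), and their sum was 7437 to 7751 CPM in foot and 3793 to 3852 CPM in forelimb. Scx, the transcription factor that defines tendon cells, stood at 64.7, 56.3 and 44.3 CPM in foot and 17.2, 19.7 and 18.01 CPM in forelimb (1.59 ± 0.13). Comp, a cartilage and tendon matrix protein, stood at 96.9, 87.96 and 79.2 CPM in foot and 7.61, 9.59 and 8.85 CPM in forelimb (3.34 ± 0.11, adjusted p = 3.58e-08). Fmod (1.77 ± 0.08), Cilp2 (1.82 ± 0.10) and Thbs4 (1.31 ± 0.14) followed. Of 14 cartilage markers 8 were higher and 2 lower, with a sum of 1237 to 1721 CPM in foot and 862 to 946 CPM in forelimb, led by the proteoglycan gene Acan with 81.6, 80.99 and 61.5 CPM in foot and 2.28, 3.33 and 3.27 CPM in forelimb (4.65 ± 0.16). The cartilage collagen gene Col2a1 was higher (1.27 ± 0.11), and Sox6 was lower (-1.32 ± 0.15). The part that tendon or cartilage caught in the sections may have in the muscle results was not tested.

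Of 52 matrix genes 30 were higher, 14 lower and 8 not called, with a median of 0.38. The microfibril gene Mfap2 stood at 767, 828 and 697 CPM in foot and 158, 158 and 178 CPM in forelimb (2.21 ± 0.09), while its relative Mfap5 stood at 13.3, 11.4 and 15.7 CPM in foot and 66.7, 59.1 and 63.8 CPM in forelimb (-2.23 ± 0.11). The groups did not overlap for either, and both were picked by small p. These microfibril genes went opposite ways. The main fibrillar collagen genes Col1a1 (0.54 ± 0.08) and Col1a2 (0.45 ± 0.08) and the proteoglycan gene Bgn (1.14 ± 0.07) were higher, and Vcan, a large proteoglycan, was lower (-1.21 ± 0.06). Fibroblast markers went both ways, 6 of 13 higher and 5 lower, with Pi16 at -2.14 ± 0.16 and Osr2 at 1.02 ± 0.12.

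Of 47 genes of BMP, TGF-beta and Wnt signalling 20 were higher, 16 lower and 11 not called (median 0.07). The Wnt inhibitor gene Wif1 stood at 139, 139 and 116 CPM in foot and 18.5, 19.4 and 22.5 CPM in forelimb (2.70 ± 0.10). Ltbp1, which stores latent TGF-beta in the matrix, stood at 766, 799 and 723 CPM in foot and 258, 271 and 304 CPM in forelimb (1.46 ± 0.08). The ligand gene Bmp5 (1.75 ± 0.11) and the Wnt modulator gene Dkk2 (1.80 ± 0.11) were higher, and the co-receptor gene Tgfbr3 was lower (-1.68 ± 0.11). Id1 and Id3, inhibitors of differentiation that BMP signalling induces, were both higher. Id1 stood at 71.3, 70.2 and 61.4 CPM in foot and 22.1, 19.7 and 20.7 CPM in forelimb (1.70 ± 0.09), and Id3 changed by 1.64 ± 0.09.

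Signalling genes of inflammation and stress split. Of 25 measured inflammatory genes 7 were higher (28%), 6 lower (24%) and 12 not called. The list was called less often (52%) than all features (66.9%), and the genes named from it were picked by small p. The NF-kappa-B subunit genes Relb, at 37.97, 32.96 and 40.8 CPM in foot and 11.7, 11.6 and 11.2 CPM in forelimb (1.69 ± 0.10), and Nfkb2 (1.38 ± 0.10) were higher. Vcam1, an adhesion gene that NF-kappa-B induces, stood at 46.1, 40.4 and 40.2 CPM in foot and 9.25, 6.84 and 6.80 CPM in forelimb (2.47 ± 0.13, adjusted p = 1.51e-07), and the cytokine receptor gene Lifr was lower (-2.10 ± 0.14). Of 25 immediate early genes, which cells switch on within minutes of a stimulus, 15 were higher, 3 lower and 7 not called (median 0.66), with Nr4a2 at 1.40 ± 0.16, Myc at 1.06 ± 0.15 and Jund at 0.85 ± 0.08. The lower members numbered 0 or 1 without the second foot library, without any 1 of the forelimb libraries or in a fit of all 24 libraries. Rcan1, a feedback inhibitor of calcineurin that calcium signalling induces, stood at 92.7, 87.5 and 117 CPM in foot and 23.7, 19.7 and 18.1 CPM in forelimb (2.27 ± 0.13, adjusted p = 2.22e-07).

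Lists of muscle breakdown had medians near that of all features. Of 35 genes of atrophy and ubiquitin ligases 10 were higher, 10 lower and 15 not called, with a median of 0.01. The atrophy ligase gene Trim63 stood at 117, 96.7 and 80.2 CPM in foot and 55.9, 61.6 and 62.5 CPM in forelimb (0.71 ± 0.12), whereas Fbxo32 stood at 4.53, 3.97 and 3.80 CPM in foot and 4.56, 4.49 and 4.35 CPM in forelimb (-0.12 ± 0.16, adjusted p = 0.528) and was not called. With the length trend removed the value of Fbxo32 was 0.37. Of 39 autophagy and lysosome genes 12 were higher and 11 lower (median 0.01), with the protease gene Ctsk at 1.04 ± 0.07 and Hexa at 1.02 ± 0.08. Of 38 genes of apoptosis and p53 targets 15 were higher and 10 lower (median -0.08). The cell cycle inhibitor gene Cdkn1a stood at 195, 226 and 165 CPM in foot and 98.9, 95.8 and 114 CPM in forelimb (0.92 ± 0.11), and the apoptosome gene Apaf1 was lower (-1.40 ± 0.09). Of 43 Atf4 targets and amino acid response genes 14 were higher and 12 lower (median 0.13), with Atf4 itself at 347, 349.6 and 307 CPM in foot and 173, 150.2 and 152 CPM in forelimb (1.08 ± 0.08). With 20 of 35, 23 of 39, 25 of 38 and 26 of 43 members called, none of these 4 lists was called more often than the 66.9% of all features.

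Without the length correction, myogenic and growth factor genes were lower more often than higher. Of 40 genes of satellite cells and myogenic regulation 19 were lower, 10 higher and 11 not called (median -0.18). Pax7, the transcription factor of satellite cells, stood at 14.6, 18.7 and 14.7 CPM in foot and 29.97, 30.8 and 32.5 CPM in forelimb (-0.95 ± 0.11). Peg3, an imprinted gene of muscle progenitors, stood at 849, 863 and 852 CPM in foot and 2663, 2751 and 2817 CPM in forelimb (-1.68 ± 0.07, adjusted p = 4.20e-08). Myog, which drives differentiation, was higher at 483, 541 and 446 CPM in foot against 306, 295 and 320.3 CPM in forelimb (0.67 ± 0.08). Eya1 (1.04 ± 0.08) was higher too, as were Vcam1, Id1 and Id3, which are described above and also belong to the satellite cell list. Of 36 muscle growth factors and receptors 17 were lower, 10 higher and 9 not called, and 10 were lower and 13 higher with the length trend removed. Igf1, a growth factor that enlarges fibres, stood at 6.04, 5.36 and 5.07 CPM in foot and 38.4, 32.8 and 29.9 CPM in forelimb (-2.61 ± 0.13, adjusted p = 1.15e-07). Fgf9 (2.19 ± 0.18), Igfbp4 (0.80 ± 0.07) and the receptor gene Fgfr1 (0.75 ± 0.07) were higher. The growth factor gene Fgf6 (-1.71 ± 0.19) and the receptor genes Met (-1.15 ± 0.12) and Fgfr4 (-0.56 ± 0.08) were lower.

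At the neuromuscular junction 12 of 30 measured genes were higher, 13 lower and 5 not called. Dok7, which activates the receptor-clustering kinase, stood at 153, 174 and 145 CPM in foot and 42.98, 46.1 and 47.8 CPM in forelimb (1.79 ± 0.09), and the kinase gene Musk changed by 1.03 ± 0.08. The receptor subunit gene Chrnd stood at 323, 372 and 326 CPM in foot and 112, 133 and 121 CPM in forelimb (1.48 ± 0.09), and the fetal subunit gene Chrng changed by 1.41 ± 0.15. The groups did not overlap for any of these 4 genes, nor for 35.7% of all features in that direction. Dok7, Musk and Chrnd were picked by small p, so their separation largely follows from that choice.

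Of 68 genes of ribosomal proteins 60 were higher, 0 lower and 8 not called, with a median of 0.75. Rps2 stood at 2899.9, 2881 and 2676 CPM in foot and 940.3, 1025 and 1036 CPM in forelimb (1.49 ± 0.08), and Rpl18 at 2029, 2117 and 1738 CPM in foot and 733, 629 and 699.9 CPM in forelimb (1.51 ± 0.09). Their transcripts are short (median 855.5 bases), and with the length trend removed 46 were higher and 2 lower, with a median of 0.45. Near-identical pseudogene copies make single values uncertain. Of 46 cell cycle genes 22 were higher, 9 lower and 15 not called (median 0.16), among them Tyms (0.69 ± 0.07) and Ccnb2 (0.90 ± 0.10), while Ccnd1 was lower (-0.70 ± 0.07). Of 35 proteasome genes 15 were higher and 6 lower, but 5 were higher and 10 lower with the length trend removed.

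Further lists cover fibre type, hormones and stress. Of 24 genes of fibre type and calcium-dependent regulation 14 were lower, 5 higher and 5 not called (median -0.32). They include Tead1, which drives muscle genes at M-CAT sites (-1.46 ± 0.09), the large Maf gene Maf, of fast fibres (-1.65 ± 0.13), and the kinase gene Camk2a (-1.16 ± 0.09). Of 21 hypoxia targets 9 were lower, 6 higher and 6 not called (median -0.37). Epas1, the hypoxia factor best known from vessels, stood at 15.6, 11.7 and 14.6 CPM in foot and 46.4, 41.1 and 48.6 CPM in forelimb (-1.70 ± 0.12), and Hk2, the hexokinase of muscle, at 18.6, 16.3 and 24.4 CPM in foot and 43.9, 70.6 and 58.2 CPM in forelimb (-1.54 ± 0.18). The groups did not overlap for either, nor for 35.8% of all features in that direction. Of 17 glucocorticoid targets 7 were lower, 4 higher and 6 not called, and the receptor gene itself, Nr3c1, stood at 23.6, 23.4 and 31.6 CPM in foot and 73.3, 66.3 and 67.5 CPM in forelimb (-1.40 ± 0.11). Hsd11b1, which makes the active hormone inside cells, was lower (-1.77 ± 0.21). Of 17 retinoic acid genes 8 were higher, 6 lower and 3 not called, with the binding protein gene Crabp1 at 165, 185 and 177 CPM in foot and 71.3, 62.8 and 71.5 CPM in forelimb (1.36 ± 0.08) and the synthesis gene Aldh1a2 at 17.3, 8.84 and 13.5 CPM in foot and 44.1, 41.3 and 49.4 CPM in forelimb (-1.77 ± 0.18).

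Of 27 chaperone and stress genes of the endoplasmic reticulum 11 were higher, 8 lower and 8 not called, and of 22 cholesterol synthesis genes 3 were higher (5 without the first forelimb library), 8 lower and 11 not called. Of 16 interferon and antigen presentation genes 4 were higher and 6 lower, but 3 were lower without the first foot library or without the first or the third forelimb library, and 2 higher with the length trend removed. Of 7 measured fat cell markers 3 were lower (5 in the fit of all 24 libraries) and 0 higher, with the leptin gene Lep at 8.74, 8.15 and 6.94 CPM in foot and 47.3, 46.7 and 43.01 CPM in forelimb (-2.52 ± 0.11). Of 6 bone markers 3 were higher and 1 lower, but 1 higher with upper quartile scaling, with the replicate block or without the first forelimb library. Dlx3, a homeobox gene of bone and skin, stood at 1.13, 2.09 and 0.785 CPM in foot and 0.0335, 0.0340 and 0.0540 CPM in forelimb (4.86 ± 0.59). Each forelimb level of Dlx3 lay under that of 3 reads in a forelimb library (0.0815 to 0.103 CPM), so the size of its change is uncertain. Neither of the 2 measured erythroid markers was called, but 1 was higher without a filter, in the fit of all 24 libraries, or without the second foot or the second forelimb library.

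The foot over forelimb change of the jerboa was then set against that of the newborn mouse, by an interaction test over 12 libraries. Of 12419 features with enough reads in both species 5925 differed (47.7%), 2719 with a higher change in jerboa (21.9%) and 3206 with a lower one (25.8%). The genome to which the reads of each species were aligned is not given in the sources used here, so only the changes were compared, not the levels. In mouse itself 7743 of 13554 features were called (57.1%), 3817 higher (28.2%) and 3926 lower (29.0%) in foot. The largest positive difference was that of Stmn4 (6.16 ± 0.43, adjusted p = 6.86e-08), whose own change in mouse was -0.12 ± 0.16. Dsp followed (5.67 ± 0.33, adjusted p = 1.30e-08), and in mouse it was lower in foot (-2.38 ± 0.28), from 40 foot and 283 forelimb reads. Corin changed by -0.01 ± 0.13 in mouse, a difference of 5.09 ± 0.27. The orphan receptor gene Gpr83 (4.84 ± 0.22), the phosphatase gene Ptprv (4.44 ± 0.16) and Grb14, an adaptor that dampens the insulin receptor (4.42 ± 0.33), were higher in jerboa foot and lower in mouse foot. The mast cell genes Cma1 (4.26 ± 0.33) and Cpa3 (4.18 ± 0.38) completed the 8 largest.

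The largest negative difference was that of Dpp10, a subunit of potassium channels (-4.31 ± 0.48, adjusted p = 4.32e-06), lower in jerboa foot (-1.14 ± 0.16) and higher in mouse foot (3.13 ± 0.47), from 90 foot and 13 forelimb reads. Nrip3 (-4.05 ± 0.61, or -3.41 without the third mouse foot library) and the receptor gene Gpr75 (-3.78 ± 0.39) also changed in opposite directions, each with fewer than 30 reads in the mouse forelimb libraries. Spp1, a phosphoprotein of bone matrix, changed by 0.54 ± 0.20 in jerboa and by 4.17 ± 0.31 in mouse (difference -3.66 ± 0.40). The jerboa groups overlapped for Spp1, and its call in jerboa was lost without the third foot library (0.25) and without the first or the third forelimb library. It was also lost with upper quartile scaling, with the replicate block (0.51), in the fit of all 24 libraries, and with the length trend removed (0.26). Fabp3 was lower in jerboa foot, while its change in mouse was 0.10 ± 0.17 (difference -3.24 ± 0.29, adjusted p = 7.66e-07). Dupd1 (-3.27 ± 0.25) and Agmat, an enzyme gene of the agmatinase family (-3.21 ± 0.39), were also among the 8 largest negative differences.

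**Figure D4:**
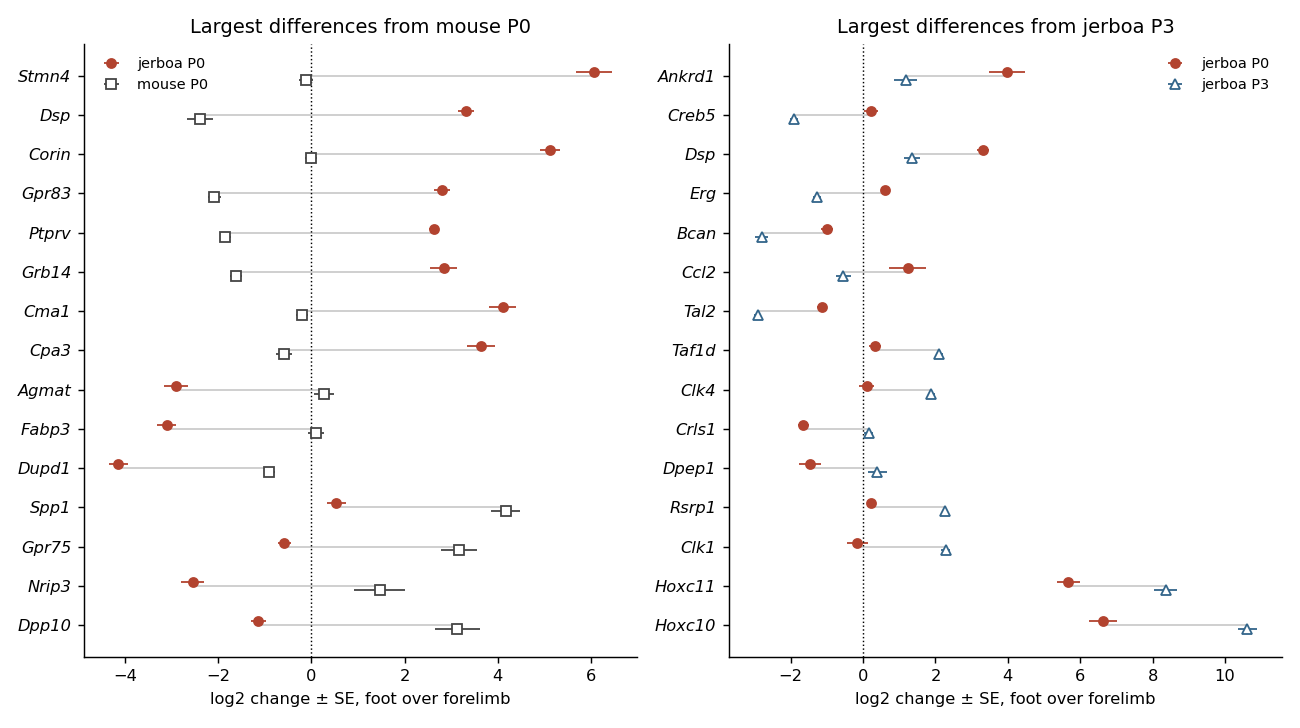
Log2 change of foot over forelimb ± SE in jerboas at P0 (filled circles), mice at P0 (open squares) and jerboas at P3 (open triangles) for genes among the 8 largest differences in each direction from mouse at P0 (left panel, with jerboa and mouse shown) and from jerboas at P3 (right panel, with both ages shown), all those named in the text. Stmn4 and Dpp10 mark the ends on the left, and Ankrd1 and Hoxc10 those on the right, where the P3 values of Hoxc10 and Hoxc11 rest on 1 and 3 forelimb reads.

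The lists differed from mouse to unequal extents, in counts taken without the length correction. All 11 endothelial markers had a lower change in jerboa, with a median change of -1.81 in jerboa and -0.60 in mouse. Of 16 macrophage markers 12 had a lower change in jerboa (medians -1.10 and -0.15), and of 13 Schwann cell markers 9 did (medians -0.56 in jerboa and 0.47 in mouse). For fatty acid oxidation 16 of 38 were lower and 7 higher than in mouse (medians -1.02 and -0.92). Respiratory chain genes differed the other way, with 17 of 52 higher and 4 lower (medians -0.52 in jerboa and -0.74 in mouse), and so did excitation-contraction coupling, with 16 of 35 higher and 3 lower (medians -0.63 and -0.97). Thick filament genes had the same median of -0.78 in both species, with 5 of 23 higher and 7 lower. Of 52 matrix genes 26 differed upward and 10 downward (medians 0.38 in jerboa and -0.20 in mouse).

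Single genes described above differed in the same test. Vcam1 was higher in jerboa foot and lower in mouse foot (-0.82 ± 0.14, difference 3.26 ± 0.20), and so was Rcan1 (-0.61 ± 0.09, difference 2.85 ± 0.16). Fgf6 was lower in jerboa foot and higher in mouse foot (1.06 ± 0.18, difference -2.81 ± 0.29). Peg3 (difference -1.44 ± 0.11), Cryab (1.08 ± 0.17) and Ass1 (2.69 ± 0.22) changed the same way in both species, by more in jerboa.

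The change at birth was last set against that of jerboas at P3. Of 12996 features 3542 differed (27.3%), 2017 with a higher change at P0 (15.5%) and 1525 with a lower one (11.7%). This split depended on the scaling: 56.9% of the calls were higher at P0 with TMM, 43.6% with upper quartile scaling and 45.3% in a fit of all 24 libraries. The labels describe the P0 files as from trimmed reads and the P3 files as from raw reads, so age and this step cannot be told apart. At P3 itself 9562 of 13128 features were called (72.8%), 4790 higher (36.5%) and 4772 lower (36.3%) in foot. Ankrd1 had the largest positive difference (2.78 ± 0.67, adjusted p = 0.00636), with a change of 1.18 ± 0.33 at P3. Without the third foot library at P0 the difference was 1.76 and still called. Creb5 was not called at P0 (0.23 ± 0.19), but was called higher with the length trend removed (0.77), and was lower in foot at P3 (-1.91 ± 0.11, difference 2.13 ± 0.24). The transcription factor gene Erg (1.87 ± 0.15), Dsp (1.97 ± 0.32), the proteoglycan gene Bcan (1.79 ± 0.26), Ccl2 (1.77 ± 0.63) and Tal2 (1.77 ± 0.18) were also among the 8 largest. The difference of Ccl2 was 0.58 without the third foot library at P0 and not called, nor was it called without any 1 of 8 of the other libraries, with DESeq2, limma voom or the replicate block, or with upper quartile scaling or filterByExpr. Erg was higher in foot at P0 and lower at P3 (-1.28 ± 0.10).

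Among the 8 largest negative differences were 3 genes of splicing or nuclear bodies and a general transcription factor subunit. Clk1, a kinase of splicing factors, stood at 216, 201 and 157 CPM in foot and 349, 171 and 122 CPM in forelimb at P0, with overlapping groups (-0.16 ± 0.30), and was higher in foot at P3 (2.29 ± 0.12, difference -2.45 ± 0.38). Its relative Clk4 (-1.79 ± 0.25), the arginine and serine rich gene Rsrp1 (-2.04 ± 0.15) and Taf1d (-1.78 ± 0.21) showed the same order, none of them called at P0. The first forelimb library at P0 had the highest Clk1. Hoxc10 (-3.96 ± 1.25) and Hoxc11 (-2.68 ± 0.80) had lower changes at P0 than at P3. At P3 Hoxc10 counted 2018 foot reads against 1 forelimb read over 3 libraries each, a ratio per counted read of 2231 with an exact 95% counting interval of 399.9 to 88148. Hoxc11 had 1043 and 3 reads there, a ratio of 384 (131 to 1867). The difference of Hoxc10 was -2.71 and not called without the second forelimb library at P0, and was not called either without the first or second at P3. That of Hoxc11 was not called without the first or second forelimb library at P0 or without the first or the third at P3. Crls1, which makes cardiolipin (-1.82 ± 0.20), and Dpep1 (-1.88 ± 0.48) were lower in foot at P0, with changes of 0.16 ± 0.12 and 0.39 ± 0.27 at P3.

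The lists were set side by side between the ages as well, again without the length correction. Of 11 endothelial markers 6 had a higher change at P0 than at P3 and 0 a lower one (medians -1.81 at P0 and -2.30 at P3). Of 13 Schwann cell markers 3 differed, a share under the 27.3% of all features (medians -0.56 at P0 and -1.60 at P3). Macrophage markers were lower by more at P0, with 7 of 16 differing (median -1.10 at P0 and -0.40 at P3). Z-disc and titin genes were lower by more at P3, with 15 of 26 differing upward at P0 (medians -0.21 and -0.65), as were thin filament genes, with 10 of 22 (medians -0.31 and -0.69). Fatty acid genes had medians of -1.02 at P0 and -1.10 at P3, and 7 of 38 differed in each direction.

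**Figure D5:**
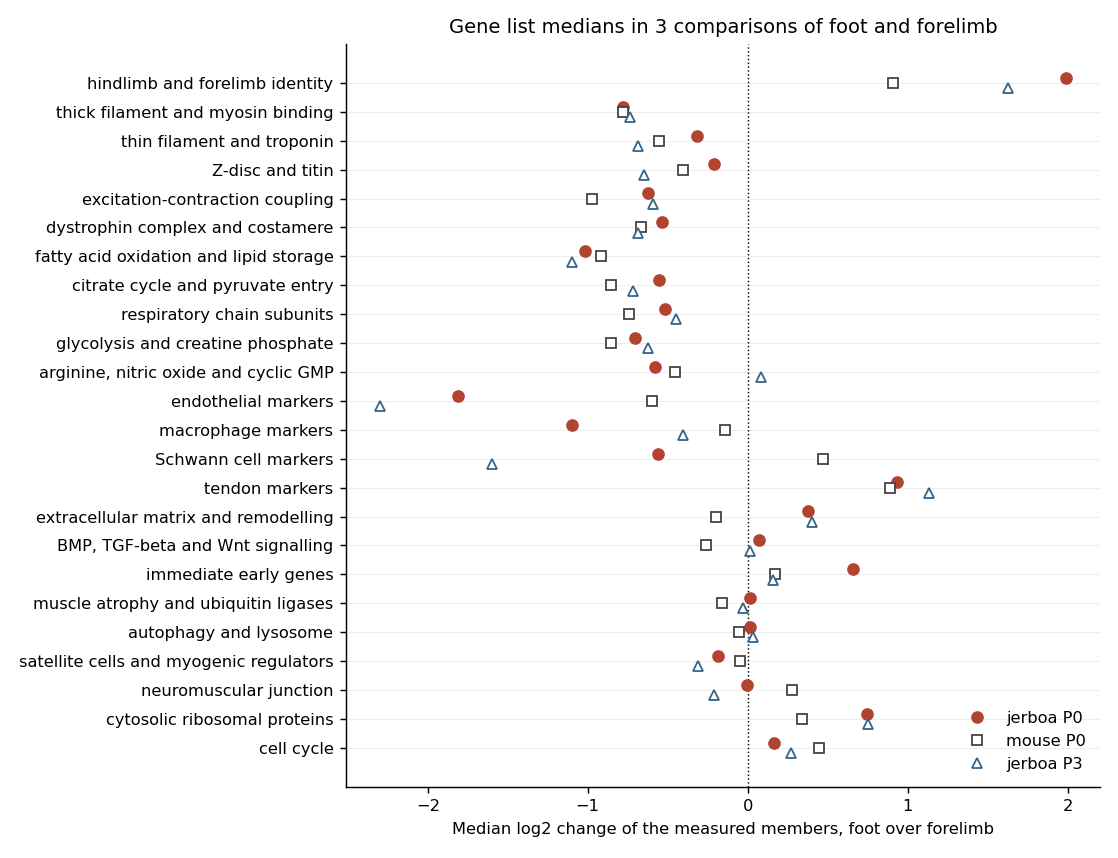
Median log2 change of foot over forelimb for 24 gene lists in jerboas at P0 (filled circles), mice at P0 (open squares) and jerboas at P3 (open triangles), without a test. The dotted line marks no change. Endothelial, macrophage and Schwann cell medians lie lower in jerboas at P0 than in mice, and the matrix median lies higher.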

How the data were processed

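RNA from foot and forelimb muscle of jerboas and mice was sequenced in 24 libraries. The authors deposited 1 table of raw read counts per library, without normalization, for 17641 features with mouse Ensembl transcript identifiers, and 17529 of them were given symbols from GENCODE M21 (GRCm38). STAR was named, without a version, in the submitters' processing notes, while genome build, annotation and counting settings were not given in the sources used here. Of the count columns, column 4 was used because it held 99.4 to 99.6% of the stranded reads of the 6 libraries. The submitters describe the P0 libraries as trimmed and the P3 libraries as original reads.

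Counts were tested with edgeR 4.0.16 in R 4.3.3 (quasi-likelihood F test, TMM normalization, Benjamini-Hochberg adjustment over all features tested) on features with at least 10 reads in 3 of the 6 libraries, and the SE is the log2 change divided by the root of F. A difference from mouse or from P3 was the interaction in a fit of 12 libraries. A count of 0 was read as at most 3 reads, about its 95% upper limit. These 3 reads are 0.0815 to 0.179 CPM in a library, and the limit covers counting error only. The tests were also run on simulated counts in which few features were changed. That run does not cover data in which most features are called.

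The members and the 48 gene lists were chosen with earlier results of these data known, so the list counts carry no test. Genes were named as the 12 largest changes in each direction (those described first in the results), up to 5 members of smallest p in each list described, a set of followed genes, and the 8 largest differences in each direction with a mean of at least 10 CPM in a jerboa P0 group. A few genes that meet this rule are not reported here. Alternatives were other normalizations and filters, DESeq2 1.42.0, limma voom 3.58.1, all 24 libraries, a replicate block, both strands, leaving out each library, and the length correction, which was chosen after seeing the data. The replicate numbers were not taken to pair foot and forelimb libraries, since the deviations of same-numbered libraries did not all correlate above 0.1.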

Additional observations from a re-analysis of the deposited data

Results flagged for a closer look

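Genes named in the text whose foot over forelimb change differed between jerboas and mice at P0, by the interaction test with an adjusted p under 0.05, are listed with the difference in log2 units, jerboa minus mouse. A higher change in jerboa was found for Stmn4 (6.16), Dsp (5.67), Corin (5.09), Gpr83 (4.84), Ptprv (4.44), Grb14 (4.42), Cma1 (4.26), Cpa3 (4.18), Vcam1 (3.26), Rcan1 (2.85), Ass1 (2.69) and Cryab (1.08). A lower change in jerboa was found for Dpp10 (-4.31), Nrip3 (-4.05), Gpr75 (-3.78), Spp1 (-3.66), Dupd1 (-3.27), Fabp3 (-3.24), Agmat (-3.21), Fgf6 (-2.81) and Peg3 (-1.44).

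Between jerboas at P0 and at P3 the same test found a higher change at P0 for Ankrd1 (2.78), Creb5 (2.13), Dsp (1.97), Erg (1.87), Bcan (1.79), Ccl2 (1.77) and Tal2 (1.77). It found a lower change at P0 for Hoxc10 (-3.96), Hoxc11 (-2.68), Clk1 (-2.45), Rsrp1 (-2.04), Dpep1 (-1.88), Crls1 (-1.82), Clk4 (-1.79) and Taf1d (-1.78). Most of these genes were named because their difference was among the 8 largest in its direction, so their sizes are a description of that choice.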

How the results depend on the processing

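Against 8697 calls, the alternatives that kept all 6 libraries gave 8315 (length correction) to 9306 (all 24 libraries), and 2787 features were both called and changed at least 2-fold. Leaving out 1 library gave 7778 to 8673 calls (3839 to 4366 higher and 3939 to 4307 lower), 5291 to 6152 differences from mouse and 2864 to 3659 differences from P3. The higher share of calls was 50.3% with TMM and 45.4% with upper quartile scaling. That of the differences from P3 was 56.9% with TMM, 43.6% with upper quartile scaling, 46.8% without a filter and 45.3% in the fit of all 24 libraries.

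With the replicate number as a block 8316 features were called, 5830 differed from mouse and 3065 from P3. Correlations of the deviations of same-numbered jerboa P0 libraries were -0.025, -0.028 and -0.068, and those of the mouse P0 libraries 0.120, 0.058 and 0.066. Not every pair was over 0.1, so the numbers were not taken to pair the libraries.

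Of the genes not called, Fbxo32 (0.37) and Myh3 (0.20) changed sign with the length correction, and Creb5 was called (0.77). Creb5 ranged between -0.048 (without the third foot library) and 0.35 when 1 library was left out, and Clk1 between -0.44 (without the third forelimb library) and 0.37 (without the first); the cause was not tested. Calls of Spp1, Erbb3, Ccl2, Hoxc10 and Hoxc11 that depend on a setting or a library stand beside their values in the report. Depth limits genes under about 10 reads, and the foot libraries were the shallower ones.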
